A study of Danio rerio with 4 samples.

Results

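Zebrafish methylomes are mostly fully methylated, so 1 kb windows that stay near 50% at every stage stand out, and the question was whether their single CpGs are intermediate or whether a border between methylated and unmethylated DNA lies inside them. The genome was divided into 1 kb windows, and a window was eligible when it had 6 or more covered CpGs, 40 or more reads and a mean coverage of at most 3 times the library median in all 4 libraries. The level of a window is its methylated reads over all its reads. Of 1071563 eligible windows, out of 1354664 windows that hold a CpG, 4365 (0.407%) had a level from 35 to 65% at 2, 4, 8 and 24 hours post-fertilization (hpf) with the highest stage less than 15 points above the lowest. They are called stable intermediate windows here. They were chosen by their levels at all 4 stages, so these levels are a description.

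The study prepared 1 whole-genome bisulfite library from whole embryos at each stage, and the labels name no strain, treatment or replicate. Because each stage is 1 library, no spread between embryos is known, no test between stages or window sets was made, and the Wilson 95% intervals given cover counting error only. Reads over the nuclear CpGs summed to between 194648540 at 8 hpf and 693553384 at 2 hpf, with a median coverage of covered CpGs of 30, 21, 8 and 12 reads at 2, 4, 8 and 24 hpf. Mitochondrial CpGs, which serve as a limit on incomplete conversion, had 0.436 to 0.853% methylated reads.

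DNA methylation in vertebrates sits mainly on the cytosine of CpG dinucleotides, where maintenance methyltransferase copies it to the new strand after replication. Most CpGs are methylated, and the study reported that active enhancers in early zebrafish embryos are generally hyper-methylated as well. CpG-rich promoters and some other regulatory elements form hypo-methylated stretches with fairly sharp edges. An intermediate level can arise when a window spans such an edge, or when each CpG is methylated on part of the DNA molecules, as at imprinted loci in mammals, in mixtures of cells and at sites with unstable maintenance. Bisulfite sequencing does not separate 5-methylcytosine from 5-hydroxymethylcytosine, and the values per CpG used here do not tell cells, alleles and strands apart.

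The median level of the stable intermediate windows was 53.3, 52.8, 52.7 and 52.6% at the successive stages, against medians of 92.5, 92.4, 92.9 and 89.4% over all eligible windows. The median change from 2 to 24 hpf was -0.42 points, with 2078 windows higher and 2284 lower at 24 hpf, whereas the median over eligible windows was -2.54 points. The rule holds these changes small. The median distance between the highest and lowest stage was 9.76 points, more than the 5.61 points of eligible windows, most of which lie close to full methylation. The stable intermediate windows held fewer CpGs (median 13 against 16) and were less covered at 2 and 4 hpf, at 0.919 and 0.728 times the library median against 1.13 and 1.07. At 8 and 24 hpf the coverage was closer, at 1.13 and 0.982 times the median against 1.16 in both. The part that coverage plays in the levels was not tested.

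Intermediate levels were found in few windows at single stages and in fewer at all of them. At 2 hpf, 20452 eligible windows (1.91%) lay from 35 to 65%, and this share was 1.93, 2.39 and 2.77% at the following stages. At all 4 stages 6958 windows (0.649%) did so, of which 2593 were left out because their stages differed by 15 points or more. The 16087 windows that were at 35 to 65% at 2 hpf but are no stable intermediate windows serve below as a comparison. They include those 2593, which are also compared on their own. The limits cut through a continuous range. Stable windows reached down to 35% and up to 65%, the nearest windows outside were at 34.97% and 65.02%, and 382 windows lay within 1 point inside the spread limit against 376 within 1 point outside it.

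Single CpGs in these windows were mostly not intermediate. Of 53041 CpGs with 10 or more reads at 2 hpf, 36.2% were low (under 25%), 27.3% (95% interval 27.0 to 27.7) intermediate (25 to 75%) and 36.5% high (over 75%). At 4 hpf the intermediate share was 29.8% of 46291 CpGs, at 8 hpf it was 27.5% of 22073, and at 24 hpf 30.2% of 31841. If every CpG had the level of its window, reads drawn at the same coverage would put 96.0%, 93.8%, 91.6% and 92.7% of CpGs in the intermediate class. At 2 hpf 27.7% of CpGs were under 10% and 26.0% over 90%. The intermediate share over all eligible windows was 6.85% at 2 hpf, and it was 33.0% in the windows at 35 to 65% at 2 hpf that are not stable.

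**Figure D1:**
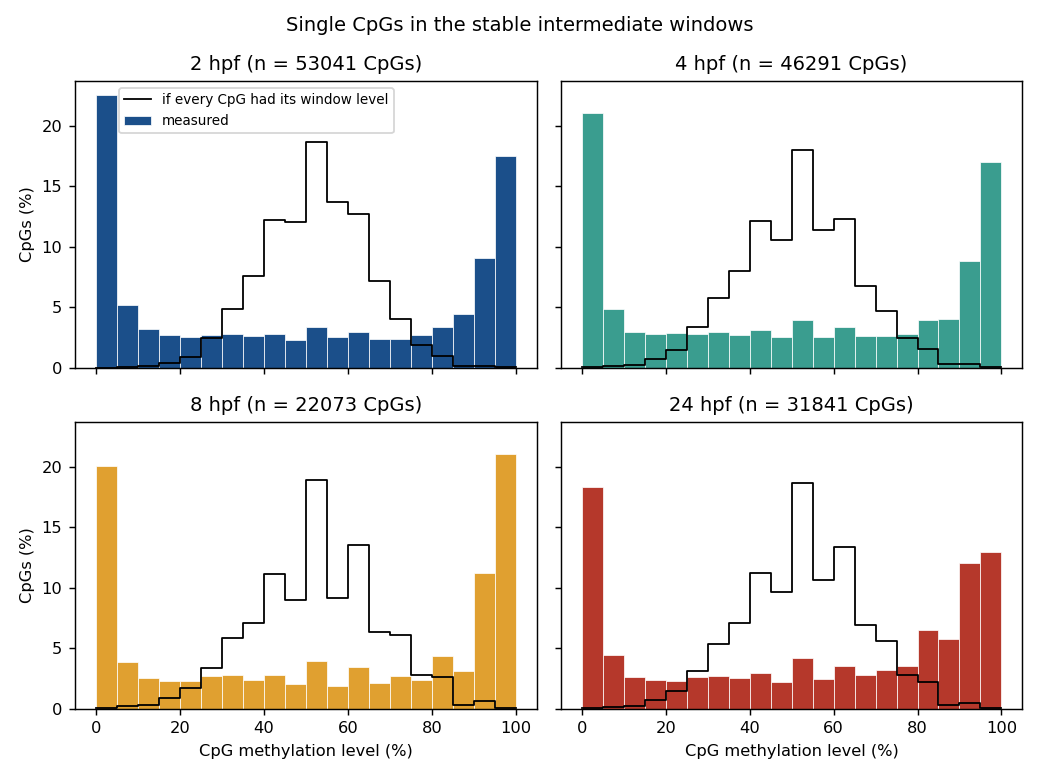
Histograms of CpG methylation level (x axis, %, bins of 5 points) in the stable intermediate windows at each stage, as the share of CpGs with 10 or more reads (y axis, %), with a black line for the share that reads drawn at the window level would give. The measured bars pile up at both ends at all 4 stages, while the line peaks between 50 and 55%.

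The same CpGs kept their class between stages. Over the 31300 CpGs with 10 or more reads at both 2 and 24 hpf, the levels correlated with Pearson's r of 0.935, as a description across CpGs that share windows and reads. Of CpGs that were low at 2 hpf, 87.5% were low at 24 hpf, and of high CpGs 88.3% were high. Of intermediate CpGs 74.2% were again intermediate. A low CpG at 2 hpf was high at 24 hpf in 10 cases and a high CpG low in 7 cases, together 0.0543% of the CpGs compared. The rule favours this, since it kept windows whose summed level stayed within 15 points. In all 20452 windows at 35 to 65% at 2 hpf, which the later stages did not choose, 83.3% of low CpGs were low and 89.3% of high CpGs high again at 24 hpf, and 65.03% of intermediate CpGs were again intermediate. Swaps between low and high made up 0.237% of 145036 CpGs there.

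CpGs near each other were mostly alike, and the difference grew with distance. Neighbouring CpGs at most 20 bp apart differed by a median of 4.88 points at 2 hpf, those over 100 and up to 200 bp apart by 21.5 points and those over 200 bp apart by 40.9 points. Neighbours differed by more than 50 points in 10.1% of the pairs at most 20 bp apart and in 43.8% of the pairs over 200 bp apart. Over all eligible windows the medians were 3.34 points at most 20 bp apart and 5.88 points over 200 bp apart. Differences of more than 50 points made up 4.53% and 10.3% of the pairs there. Close CpGs are often read by the same molecules, and the part of this in their likeness was not tested.

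Each window was then assigned to a kind from its CpGs at 2 hpf, the deepest library, and the other 3 libraries were measured at the place that 2 hpf had set. The rule held the level of the whole window in those libraries too, so what they show within it is no independent test. A border was called where the best split into 2 parts of at least 3 CpGs gave levels at least 50 points apart, and an inner stretch where the middle of 3 parts was at least 50 points below (dip) or above (peak) both outer parts. Without either, a window was intermediate throughout when at least 75% of its CpGs with 10 or more reads (6 or more of them) lay between 25 and 75%, and mixed otherwise. A border was found in 2426 of the 4365 windows (55.6%, interval 54.1 to 57.0), against 3.62% of all eligible windows. Dips were found in 99 windows (2.27%) and peaks in 30 (0.687%), against 1.27% and 0.0224% of eligible windows. Intermediate CpGs throughout were found in 235 windows (5.38%, interval 4.75 to 6.09), against 0.221%, and 1506 windows (34.5%) were mixed, against 94.3%. Mixed is the class for all that is left, so the 94.3% include windows methylated throughout. Of single CpGs in eligible windows, 85.8% were high at 2 hpf. The last 69 windows had too few CpGs to assign.

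The rule itself bears on this comparison, since a window near full methylation has no room for a border of this kind beyond a few CpGs. Among the 16087 windows at 35 to 65% at 2 hpf that are not stable, the border share was 55.0% (interval 54.2 to 55.7) and windows intermediate throughout made up 10.3%. Among the 2593 windows at 35 to 65% at all 4 stages whose stages lay 15 points or more apart, borders made up 60.7% (interval 58.8 to 62.6) and windows intermediate throughout 8.33%. The stable windows, at 55.6% and 5.38%, thus had the lowest share intermediate throughout of the 3 sets, and a border share below that of the 2593 windows. The 2593 windows lie within the 16087, so the sets are not separate. The stable windows also held fewer CpGs, with a median of 13 against 15 in the 16087 windows. Among the stable windows, the share intermediate throughout was higher where a window held more CpGs. With 1 library per stage these differences between window sets were not tested.

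**Figure D2:**
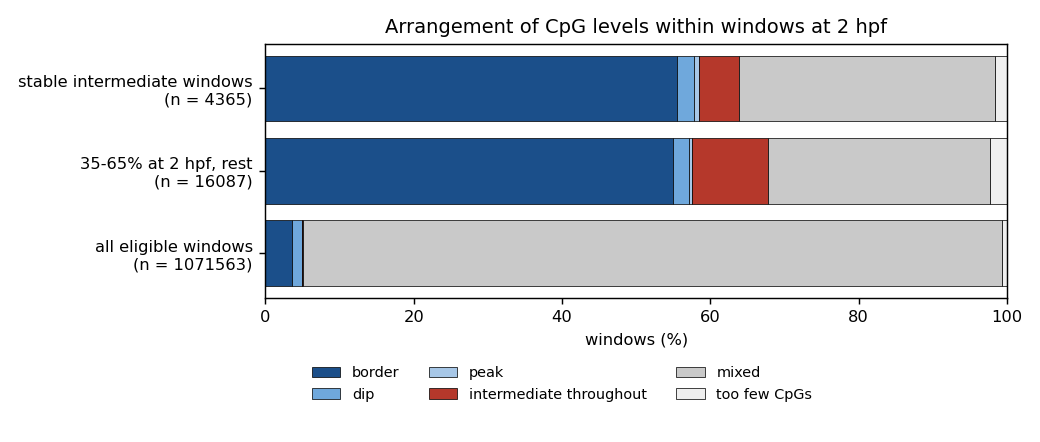
Share of windows (x axis, %) of each kind at 2 hpf, as stacked bars, in the 4365 stable intermediate windows, in the 16087 other windows at 35 to 65% at 2 hpf and in the 1071563 eligible windows. Borders take 55.6% of the first bar and 55.0% of the second, and windows intermediate throughout 5.38% and 10.3%. Mixed is the class for all that is left and in the third bar includes windows methylated throughout.

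In the windows with a border, the parts placed at 2 hpf differed in the same direction at the other stages. The low part had a median level of 9.78% at 2 hpf and of 10.2%, 9.09% and 11.3% at 4, 8 and 24 hpf, and the high part of 87.1%, 85.5%, 87.8% and 83.5%. The median difference was 70.7, 73.4 and 68.5 points at 4, 8 and 24 hpf, and it reached 50 points in 86.6%, 89.8% and 84.0% of windows. Of 2425 windows measured at 4 hpf, 2424 had the same direction, as did 2401 of 2403 at 8 hpf and 2406 of 2409 at the last stage. A border called anew at 4 hpf was found in 87.6% of the 2365 windows with enough CpGs, while 8 hpf gave 84.7% of 2138 and 24 hpf 83.0% of 2261. It fell between the same pair of neighbouring CpGs in 78.8%, 69.6% and 68.6% of these. All 4 libraries had a border in 1493 windows (61.5%). In the 20452 windows chosen by the level at 2 hpf alone, 11269 had a border at 2 hpf, and it was called again in 85.8, 79.7 and 77.0% of those with enough CpGs at 4, 8 and 24 hpf.

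The parts were seldom wholly low or wholly high. At 2 hpf 79.8% of the CpGs of low parts were low and 3.76% high, and 77.6% of the CpGs of high parts were high and 3.76% low. Among 2225 windows with at least 3 CpGs of 10 or more reads in each part, 1490 (67.0%) had no high CpG in the low part and no low CpG in the high part. At 24 hpf this held for 854 of 1159 windows (73.7%), but the parts held fewer CpGs of 10 or more reads there. Low parts had 8620 such CpGs against 17363 at 2 hpf, and high parts 10525 against 15326. Of the CpGs of low parts at 24 hpf, 71.2% were low and 5.31% high. Of those of high parts, 74.9% were high and 4.25% low. The higher share of windows at 24 hpf therefore does not show cleaner parts. The call does not require uniform parts, so windows with scattered low and high CpGs or a short dip can be among the 2426. When 1 part had to lie under 25% and the other over 75%, 1540 windows had a border, and with at least 5 CpGs on each side 1516 did.

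The low part was on the left in 1218 windows and on the right in 1208. The border was at a median of 508.5 bp from the window start, and in 1674 windows (69.0%) within the middle 400 bp. The CpGs next to it on either side were a median of 115.5 bp apart, and under 50 bp apart in 564 windows (23.2%). The low part held more CpGs per kb, with a median of 16.8 against 12.2, and was the denser part in 1717 windows. It was also less covered. Its median coverage was 0.817 times that of the high part at 2 hpf and 0.732 times at 24 hpf. The level of a window is taken over its reads, and the rule holds it near the middle. This favours low parts with more CpGs where their coverage is lower, so the choice of windows ties density and coverage together. Neither was measured for borders in the other eligible windows.

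Turned so that the low part lies on the left, the mean CpG level at 2 hpf was 12.03% at 200 to 300 bp before the border, 17.6% in the last 100 bp, 79.5% in the first 100 bp beyond it and 83.9% at 200 to 300 bp. The other stages stepped at the same place, with 19.9% and 76.4% on either side at 24 hpf. Intermediate CpGs were most frequent at the border itself. They made up 30.1% of CpGs in the first 100 bp on the high side at 2 hpf, against 6.11% at 600 to 700 bp on the low side and 9.97% at 700 to 800 bp on the high side. On the low side the mean level rose again with distance, to 64.6% at 1900 to 2000 bp at 2 hpf.

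**Figure D3:**
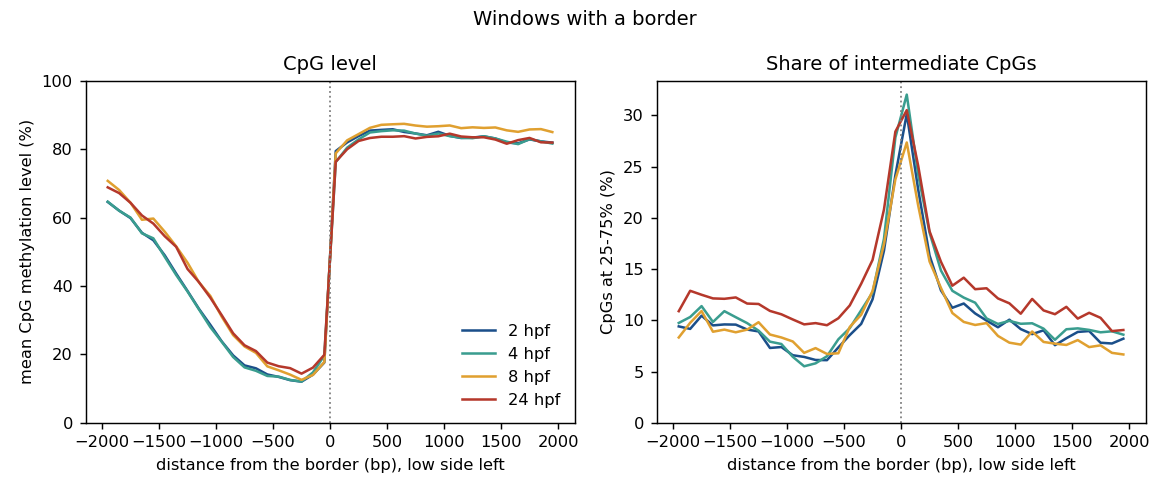
Mean CpG methylation level (left, y axis in %) and share of CpGs at 25 to 75% (right, y axis in %) by distance from the border in bins of 100 bp (x axis, bp, low side at the left) in the 2426 windows with a border, 1 line per stage. All 4 stages step from under 20% to over 76% at the border, where the intermediate share is highest.

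The windows beside these, which no rule had used, carried the same direction. At 2 hpf the neighbour on the low side was the lower one in 1960 of 2375 windows (82.5%), and in 81.9%, 82.1% and 81.1% at 4, 8 and 24 hpf. Its median level was 24.4% at 2 hpf, with quartiles of 2.04 and 81.6%, and 33.3% at 24 hpf, while the neighbour on the high side had medians of 91.1% and 88.0%. One neighbour was under 25% and the other over 75% in 1070 windows (45.1%). In 610 windows (25.7%) both were over 75%, so that the low stretch there hardly reached beyond the window. With the grid moved by 500 bp, neither of the new windows that overlap a border window was at 35 to 65% in 1790 of 2420 cases (74.0%) at 2 hpf. For windows intermediate throughout this was so in 32 of 225 cases (14.2%), and both new windows were at 35 to 65% in 52 cases (23.1%) against 1.86% of border windows. The rule and the kinds favour this contrast. A window level of 35 to 65% favours a border near the middle, which the moved grid brings near an edge. The kind intermediate throughout keeps most of the CpGs shared with the new windows intermediate.

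**Figure D4:**
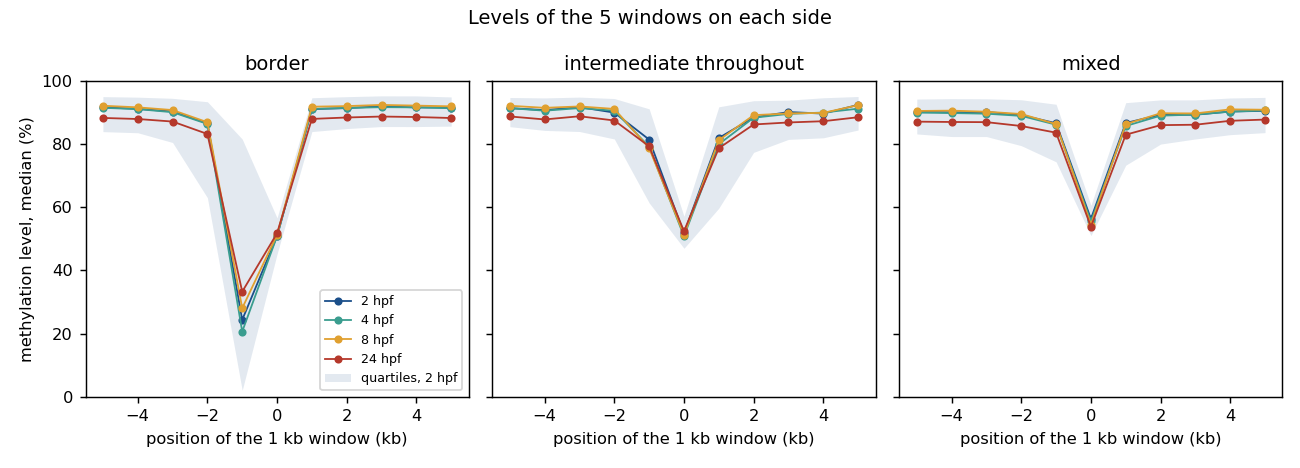
Median methylation level (y axis, %) of the 1 kb windows up to 5 kb on each side (x axis, kb) of border windows, turned with the low part at the left, of windows intermediate throughout and of mixed windows, 1 line per stage and quartiles shaded for 2 hpf. The neighbour on the low side of border windows is the lowest, with a median of 24.4% at 2 hpf, while the medians of both neighbours of the other kinds lie between 78 and 87%.

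The window with a border and the most deeply read CpGs lay at chr11:39801001-39802000 in Zv9 and held 41 CpGs. Its level was 55.6% at 2 hpf (interval 53.1 to 58.0) and 59.5, 47.4 and 57.4% at the later stages. The 19 CpGs on the left of the border had 25.5%, 26.5%, 20.9% and 27.1%, and those on the right 90.3%, 88.4%, 91.5% and 85.3%. Its low CpGs lay between high ones, and the windows before and after were at 93.8% and 85.4% at 2 hpf, so this is a short low stretch rather than the edge of a long one. A series of 6 successive CpGs in it has distances that occur 2433 times in the genome, and these CpGs belong to its high ones, with a level of 90.4% at 2 hpf.

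The next one, at chr5:52084001-52085000 with 33 CpGs, had levels of 55.5%, 48.7%, 44.8% and 52.7%. Its left part had 27.5% at 2 hpf and 11.4%, 17.0% and 16.7% later, and its right part 94.2%, 95.9%, 96.4% and 89.1%. Successive CpGs were 4 bp apart at 22 of 32 distances, and no CpG lay in a gap of 371 bp at the border. At 2 hpf 11 of its 31 CpGs with 10 or more reads were intermediate, all in the left part. The windows before and after were at 91.3% and 89.7% at 2 hpf, so this too is a short low stretch. Both windows were named by their number of well read CpGs, which favours CpG-dense sequence such as tandem arrays.

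A pair of adjoining windows enclosed a low stretch from both ends. At chr1:52314001-52315000 the part up to position 52314552 was at 86.0%, 81.0%, 86.5% and 82.3%, and the part from 52314636 on at 6.34%, 3.52%, 2.13% and 5.45% at 2, 4, 8 and 24 hpf. In the next window, chr1:52315001-52316000, the order was turned, with 20.8%, 18.8%, 6.25% and 21.7% before the border at 52315341 to 52315399 and 83.9%, 70.1%, 74.2% and 75% after it. The windows outside the pair were at 87.0% and 84.6% at 2 hpf. The second border was less clean. Its low part held 3 CpGs, of which the one at 52315341 had 33.3, 71.4 and 80% at 2, 4 and 24 hpf and no read at 8 hpf. In its high part the last CpG, at 52315995, was at 0% at all 4 stages with 15, 21, 8 and 6 reads. The second window rested on 47 reads at 8 hpf, and its level there of 51.1% had an interval of 37.2 to 64.7. Another named pair, at chr2:59986001-59988000, joined a border window and a mixed one. The border window was covered at 0.461, 0.309, 0.533 and 0.493 times the library median. Only 1 of its CpGs, and 2 in the mixed window, had 10 or more reads in all 4 libraries. A series of 6 successive CpGs has distances that occur 828 times in the genome in the border window and 844 times in the mixed one.

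Windows intermediate throughout were few, and the other libraries found intermediate CpGs in them as well. Single CpGs there were intermediate in 85.6% at 2 hpf, which the kind used, and in 81.8, 75 and 76.4% at 4, 8 and 24 hpf, which it did not. Among windows with 6 or more CpGs of 10 reads, the share of intermediate CpGs reached 75% again in 169 of 222 at 4 hpf (76.1%), in 68 of 119 at 8 hpf (57.1%) and in 116 of 186 at the last stage (62.4%). It reached 75% at all 4 stages in 38 of the 110 windows that could be measured at all of them, and 50% in 94. When every CpG had to be intermediate, 27 windows were left. The same CpG differed between 2 and 24 hpf by a median of 11 points in these windows, against 5.88 points in border windows. Their r was 0.639 over 2325 CpGs, against 0.949 over 18894 in border windows, again as a description. The kind holds most CpGs of these windows in the intermediate range at 2 hpf, which by itself lowers r. Counting error is also largest near the middle of the scale. The comparison therefore cannot tell whether single CpGs were less constant in these windows.

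These windows held more CpGs than the others, with a median of 21. In the 205 of them whose centre lay within a run of intermediate CpGs, the run spanned a median of 930 bp and exceeded 1 kb in 95. The centre of 30 windows lay outside such a run. The kind itself favours long runs, so no comparison with the other kinds is drawn. Their neighbours were mainly methylated, with medians of 81.5 and 82.0% before and after at 2 hpf. Both neighbours were over 75% in 85 of 216 windows (39.4%), and 1 or both were at 35 to 65% in 64 (29.6%).

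The best read example was chr14:26672001-26673000 with 30 CpGs. Its level was 50.8% at 2 hpf (interval 48.0 to 53.5) and 46.9, 52.1 and 49.7% later. At 2 hpf 27 of 29 CpGs with 10 or more reads were intermediate and none was high, at 4 hpf 27 of 30, at 8 hpf 15 of 20 and at 24 hpf 21 of 24. A CpG at position 26672955 was lower than its neighbours at every stage, with 8.62%, 23.5%, 15.4% and 36.4%, and another at 26672887 had 14.0%, 22.5%, 0% and 16.7%. The windows on either side were at 49.7% and 65.6% at 2 hpf. A series of 6 successive CpGs in this window has distances that occur 6 times in the genome.

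The next example, chr3:4698001-4699000 with 35 CpGs, had levels of 59.7%, 58.0%, 58.5% and 58.4%, but its reads lay mostly in the right part. All 13 of its CpGs with 10 or more reads at 8 hpf were intermediate, and all lay from position 4698641 to 4698959. In the left part the CpGs at 4698466 and 4698486 were at 100% at 2 hpf with 15 and 12 reads, so the intermediate CpGs did not fill this window. The window before it was at 95.5% and the one after it at 59.7% at 2 hpf. A series of 6 successive CpGs in this window has distances that occur 54 times in the genome, and these CpGs were at 100% at 2 hpf. At chr1:52867001-52869000 a pair of adjoining windows were both assigned to this kind at 2 hpf, the left one with 48.5, 51.3, 41.1 and 48.0% at the successive stages and the right one with 56.6, 64.5, 56.0 and 51.5%. At the later stages they mostly missed its limit of 75%, with 6 of 10, 4 of 6 and 6 of 10 CpGs of 10 or more reads intermediate in the left window and 5 of 9, 1 of 2 and 5 of 6 in the right one. The first CpGs of the left window, at 52867140 and 52867209, were high at 97.3 and 96.0% at 2 hpf, beside a window at 97.7%.

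Inner stretches called at 2 hpf were called again in 42.4, 23.0 and 36.6% of dips and 20, 11.5 and 17.9% of peaks with enough CpGs at 4, 8 and 24 hpf, and borders in 87.6, 84.7 and 83.0%. For the 99 dips, the middle part placed at 2 hpf lay 50 points or more below the outer parts in 58.6, 64.4 and 61.7% at 4, 8 and 24 hpf, and below them at all in 98 of 99, 87 of 87 and 93 of 94. For the 30 peaks the difference reached 50 points in 24.1%, 48.1% and 41.4%. The count of inner stretches became 378 with 2 CpGs per part and 26 when the parts had to lie under 25% and over 75%. In the dip at chr2:1849001-1850000, with 34 CpGs, the middle part had 5.08%, 11.6%, 12.7% and 2.82% between outer parts of 78.5% and 78.1% at 2 hpf and of 74.7% and 75.2% at 24 hpf. In the peak at chr22:16742001-16743000 the middle part had 91.7%, 91.4%, 76.4% and 76.7%. The left outer part had 35.04%, 40.4%, 47.9% and 28.5%, and the right one 30.7%, 27.9%, 27.9% and 22.1%. At 8 and 24 hpf the middle part was less than 50 points above the left one.

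The mixed windows among the stable intermediate ones mostly held low, intermediate and high CpGs together. Of the 1506, 1400 (93.0%) had both a low and a high CpG at 2 hpf, and 34.9% of their CpGs were intermediate. Neighbouring CpGs at most 20 bp apart differed by more than 50 points in 23.7% of pairs at 2 hpf, against 5.65% in border windows. The kinds were assigned from these same levels at 2 hpf, and mixed windows are those left over. The kinds therefore favour this contrast and the presence of both low and high CpGs. The best split gave a median step of 33.3 points, and in 463 windows it was from 40 to 50 points, just under the border limit. The example with the most well read CpGs, chr15:34025001-34026000 with 57 CpGs, had levels of 58.6%, 48.1%, 60.9% and 61.1%, and 39 of 57 of its CpGs were intermediate at 2 hpf. Its neighbours were at 91.0% and 96.3%. At chr22:37565001-37566000, with 36 CpGs and levels of 55.1%, 49.0%, 47.2% and 47.0%, low, intermediate and high CpGs numbered 7, 15 and 14 at 2 hpf.

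**Figure D5:**
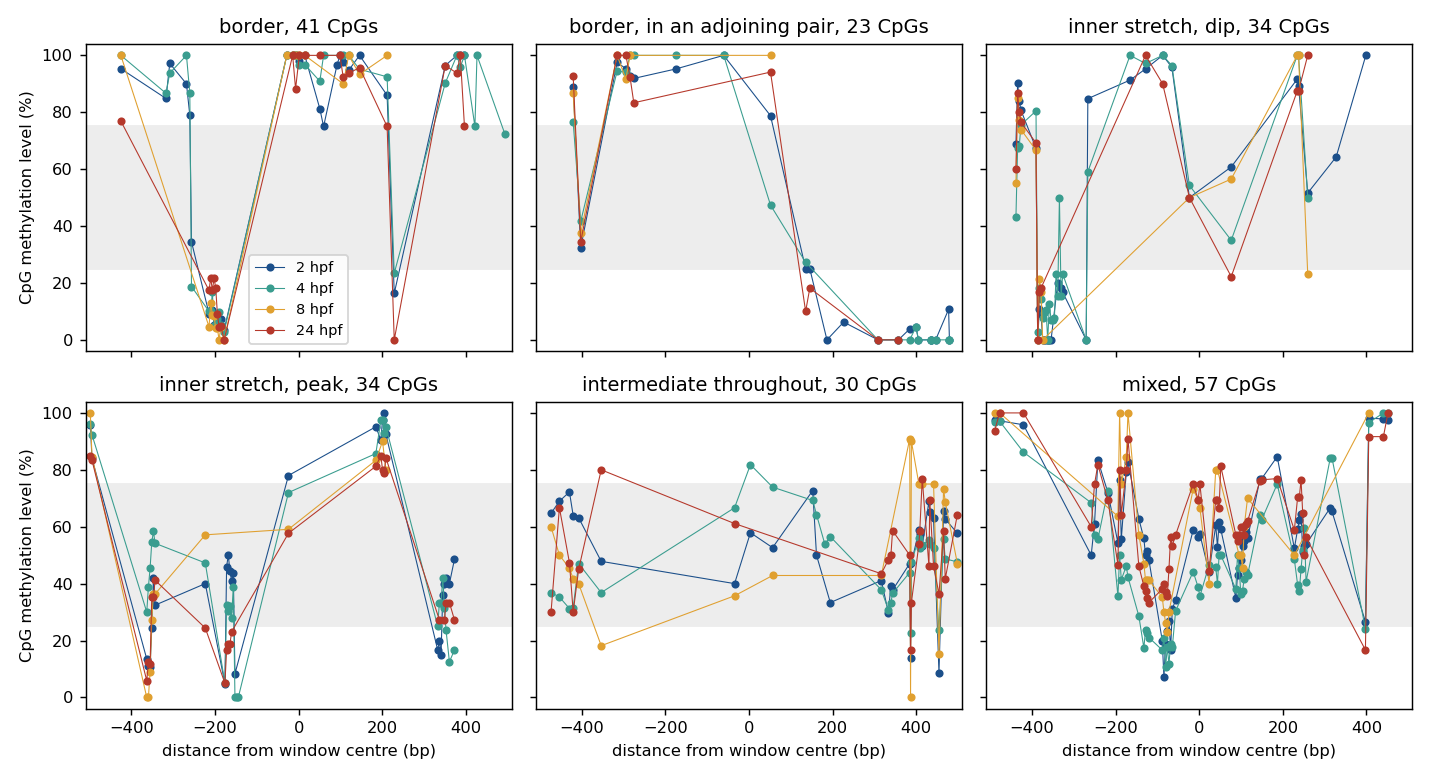
Level of each CpG with 10 or more reads (y axis, %) by distance from the window centre (x axis, bp) at the 4 stages in 6 named windows, with 25 to 75% shaded. The pair member at the top centre steps from high to low, the window intermediate throughout has 27 of 29 CpGs in the shaded range at 2 hpf, and the lines join CpGs only to guide the eye.

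Most stable intermediate windows stood alone. Of the 4365, 4231 had no adjoining member and 67 pairs adjoined, with no longer run. Members are 0.407% of eligible windows, so few would adjoin in any case. Whether pairs were more frequent than that share gives was not tested. The pairs joined 2 borders in 24 cases, a border and a mixed window in 19 and 2 windows intermediate throughout in 3. The share of eligible windows ran from 0.310% on chromosome 23 (interval 0.259 to 0.371) to 0.520% on chromosome 2 (0.460 to 0.589). It fell with the number of CpGs, from 0.780% of windows with 6 to 8 CpGs to 0.211% of those with 31 or more. The share of windows intermediate throughout among the stable ones went the other way, from 1.89% to 17.4% over the same classes.

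Repeated sequence was looked for through the spacing of CpGs, since sequence was not used here. A window counted as recurrent when 6 successive CpGs had distances found at 5 or more places in the genome. The 6 CpGs had to span 50 bp or more and show 3 or more different distances. CpGs at a fixed step throughout, as in a short tandem array, could therefore not count, and the shares below leave such arrays out. This held for 567 stable intermediate windows (12.99%), against 22.7% of eligible windows, and for 319 with 7 distances, or 7.31% against 13.7%. It held for 91 of 235 windows intermediate throughout (38.7%) and 10.6% of border windows. Windows with more CpGs have more chances to recur, and the stable windows hold fewer. Within windows of 9 to 12 CpGs the share was 2.01% against 2.28% of eligible windows, and within those of 13 to 18 it was 7.65% against 10.8%. It was 32.2% against 35.03% with 19 to 30 CpGs, and 60.6% against 72.7% with 31 or more. Of the windows intermediate throughout, 51.9% recurred with 19 to 30 CpGs (41 of 79) and 74.0% with 31 or more (37 of 50). The other copies of these spacings were mostly methylated. For 69 windows intermediate throughout, the recurring CpGs had a median level of 56.2% at 2 hpf, while the median over the other copies was 89.2% and lay over 75% in 55 cases. The rule and the kind hold the first of these levels near the middle, so the gap follows from the choice of windows. The median over all eligible windows was 92.5% at 2 hpf.

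Some of the named windows hold CpGs at a fixed step of 4 bp, as a short tandem array gives. This distance made up 22 of 32 distances in the chr5 border window, 20 of 33 in the chr2 dip, 22 of 33 in the chr22 peak, and 30 of 56 and 28 of 35 in the chr15 and chr22 mixed windows. In the chr11 border window it made up 8 of 40. In the windows intermediate throughout on chr14 and chr3 and in the named adjoining pairs, other distances were the commonest. The chr14 and chr3 windows both counted as recurrent by the measure above. Over all stable intermediate windows, 72 (1.65%) had 10 or more distances of 4 bp, against 0.221% of eligible windows and 1.99% of the other windows at 35 to 65% at 2 hpf. Within windows of 19 to 30 CpGs the shares were 3.51% (31 of 884) and 0.183%, and within those of 31 or more CpGs 12.5% (36 of 287) and 1.27%. This measure was chosen after the named windows were seen. Their median coverage was 0.913 to 1.13 times the library median, which the rule caps at 3 times, and how reads were placed in such arrays was not tested.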

How the data were processed

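Whole-genome bisulfite libraries were made from whole zebrafish embryos at 2, 4, 8 and 24 hpf. The authors mapped the reads to Zv9 (danRer7, per the labels) and deposited for each CpG the coverage, over both strands, and the fraction of methylated reads. The aligner and duplicate treatment are, in the sources used here, not given. Fraction times coverage gave whole methylated reads within 0.00124. Windows start at multiples of 1 kb, and coordinates are 1-based. Borders used CpGs with 5 or more reads and the split with the highest binomial likelihood. Named windows were the 2 of each kind with the most CpGs of 10 reads in all libraries, at 0.5 to 1.5 times the median coverage, and the first 3 of the longest runs. Window members, kinds and lists were chosen with earlier results of these data known. Reads crossing several CpGs count at each, so intervals are too narrow. Genes and sequences need a Zv9 annotation or genome and were not used here. Software was matplotlib 3.10.9, numba 0.67.0, numpy 2.4.6, scipy 1.17.1, Python 3.11.15 and pandas 2.3.3.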

Additional observations from a re-analysis of the deposited data

How the results depend on the processing

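Of 36 alternatives tried, 13 left a count within 1.5 times its value or a share within its interval. The number of stable intermediate windows was 1874 with levels from 40 to 60%, 2291 with stages under 10 points apart, 6958 with no limit on that distance and 2823 with 10 or more covered CpGs. With the mean of CpG fractions as the level it was 10152, of which 2463 are among the 4365, so membership depends on how the level is taken. Borders made up 67.0% of those 10152 windows and windows intermediate throughout 2.34%. Without the 8 hpf library, an alternative chosen after seeing the data, the rule gave 7433 windows, with borders in 53.2%. Borders numbered 1540 with parts under 25% and over 75% and 1516 with 5 CpGs on each side. Inner stretches numbered 378 with 2 CpGs per part and 26 with parts under 25% and over 75%. With all CpGs required, 27 windows were intermediate throughout. With 7 distances, 319 windows had a recurrent spacing. The share of intermediate CpGs with 5 reads for a CpG was 28.8, 25.1 and 28.4% at 4, 8 and 24 hpf. With 20 reads it was 27.9%, 33.1%, 33.9% and 34.5% at 2, 4, 8 and 24 hpf, and with limits of 20 and 80% it was 32.6%, 35.4%, 32.7% and 36.5%. The cause was not tested. With 1 library per stage no library could be left out within a stage. No paired analysis was possible because each stage has 1 library. Depth limits the kinds at 8 hpf, where 800 of 4365 windows had too few CpGs to assign against 69 at 2 hpf.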

Other observations

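Windows left out for high coverage held intermediate levels as well. Of 17095 windows with more than 3 times the median coverage in 1 or more libraries, 144 (0.842%) met the limits on level and spread, against the 0.407% of eligible windows, and 4 of them were over 3 times the median in all 4 libraries.

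Of the stable intermediate windows, 1067, 1129, 1056 and 1113 were highest and 824, 1237, 1139 and 1165 lowest at 2, 4, 8 and 24 hpf. Over all eligible windows 24 hpf was the highest in 95345 and the lowest in 634320 of 1071563.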
